A study of Mus musculus with 20 samples.

Results

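The genes described here are 10 genes of mouse MHC (major histocompatibility complex) class I antigen presentation, chosen by name from 55414 gene identifiers in an RNA-seq count table. They are the heavy chains H2-K1 and H2-D1, the light chain B2m, the peptide transporter genes Tap1 and Tap2, the loading factor Tapbp (tapasin), the immunoproteasome subunits Psmb8, Psmb9 and Psmb10, and the class I transactivator Nlrc5. All 10 were measured, and all 10 passed the filter on low counts that left 15624 genes for testing. The cells were cardiac fibroblasts, the matrix-producing cells of the heart, from mice with a loxP-flanked Hyal2 gene, grown in culture and used at passage 2. The genotype label nevertheless reads wild type C57BL/6J.

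Every culture was serum starved for 24 h and given an adenovirus for 5 h, so the controls were virus-treated too. The GFP group received a GFP virus, the Cre group a Cre recombinase virus that deletes exon 2 of Hyal2, a hyaluronidase gene, and the Hyal2 group a virus that overexpresses Hyal2. GFP_TGFB and Cre_TGFB received the GFP or Cre virus and TGFB (transforming growth factor beta), with 48 h of stimulation at 20 ng/mL of growth factor. The label wording does not say whether the cultures without TGFB received bFGF in its place, so an effect of TGFB and one of bFGF withdrawal cannot be told apart. Each group had 4 replicates, numbers 1 and 2 labelled female and 3 and 4 male. The replicate numbers were taken to pair the libraries across groups.

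Library totals ranged from 38.6 to 104.8 M counts. Levels are given as CPM, the counts of a gene divided by the TMM-scaled library total in M, and a floor of 3 counts corresponded to 0.0285 to 0.0813 CPM, which covers counting error only. Hyal2 itself followed the labels: GFP cultures held 41.2 ± 3.46 CPM (SD, n = 4) and Cre cultures 10.4 ± 2.90, GFP_TGFB held 36.8 ± 3.90 and Cre_TGFB 7.42 ± 1.56, and the overexpressing cultures held 934 ± 466. The fibroblast label was checked against 10 fibroblast markers, all tested, with Col1a1 at 10987 CPM in GFP and Pdgfra at 1016. RNA of other cell types was present too: in GFP libraries 17 leukocyte markers summed to 227 to 529 CPM, most of it the macrophage gene Lyz2 (224 ± 79.5 CPM), with Csf1r at 18.6 ± 6.24. Sums were 97.5 to 167 CPM for 6 mural markers, 39.2 to 42.9 for 9 endothelial, 2.62 to 3.35 for 8 cardiomyocyte and 1.57 to 4.54 for 9 mesothelial markers. The T cell marker Cd3e was at or near 0, and the cardiomyocyte gene Myh6 was at 0 counts in GFP, Cre, Hyal2 and GFP_TGFB.

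Class I molecules display peptides from inside the cell to cytotoxic T cells and natural killer cells. The proteasome cuts proteins into peptides, TAP1 and TAP2 pump them into the endoplasmic reticulum, and tapasin helps load them onto a heavy chain paired with B2M. In cells exposed to interferon, PSMB8, PSMB9 and PSMB10 replace the catalytic subunits PSMB5, PSMB6 and PSMB7, and NLRC5, itself induced by interferon, acts at class I promoters. Fibroblasts express class I at a basal level, and TGFB is known as an immunosuppressive cytokine that also turns cardiac fibroblasts into contractile myofibroblasts.

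In GFP cultures the light chain had the highest level of the 10 genes per kilobase of the principal transcript, and the transactivator the lowest. B2m stood at 1081 ± 103 CPM per kb, H2-D1 at 155 ± 11.9 and H2-K1 at 151 ± 16.6, and the ranges of the heavy chains overlapped. Tapbp followed at 87.6 ± 17.4 CPM per kb. Tap1 at 23.2 ± 3.72, Tap2 at 21.8 ± 3.25, Psmb10 at 20.9 ± 1.497 and Psmb8 at 18.6 ± 2.85 CPM per kb each overlapped the next in this order. Their order among themselves depended on the length used: with the union of all exons Tap1 stood at 12.5 and Tap2 at 19.8 CPM per kb. The closeness of the heavy chains depended on it too, with H2-D1 at 126 and H2-K1 at 83.2 CPM per kb by the exon union. Psmb9, at 3.87 ± 1.32, and Nlrc5, at 0.571 ± 0.0867 CPM per kb, were below the rest and did not overlap each other. B2m was highest, and Psmb9 and Nlrc5 lowest, in all 5 groups, as the plot of CPM in each library shows gene by gene.

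**Figure D1:**
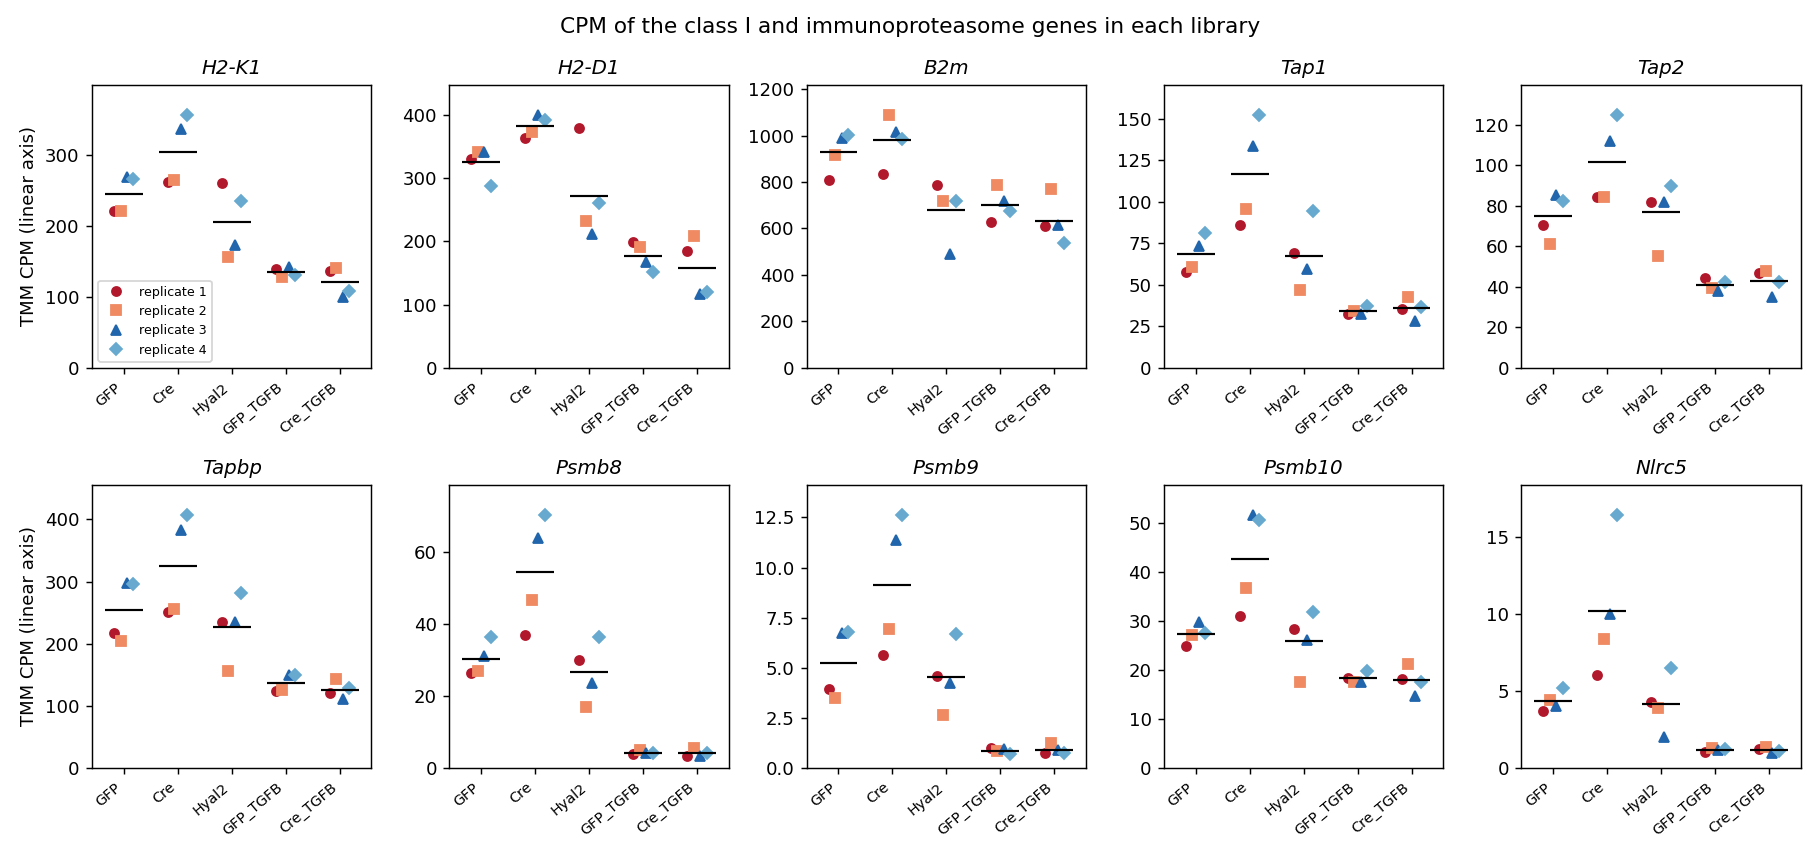
CPM of each of the 10 genes (linear axis from 0) in the 4 libraries of each group, with the symbol giving the replicate number and the bar the group mean. In GFP_TGFB the libraries lie below those of GFP for every gene, for Psmb8 between 3.79 and 4.82 CPM against 26.4 to 36.4, while in Cre they lie higher for Nlrc5, between 6.00 and 16.4 CPM against 3.69 to 5.20.

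H2-K1 and H2-D1 encode classical heavy chains, and their proximal promoters are shown because these genes fell together with TGFB and the promoters are much alike. The sequences are from RefSeq on build GRCm38.p6, and 8 of the 10 genes had an entry (Tap2 and Nlrc5 did not). Each runs 5′ to 3′ on the gene's strand over the 250 bases before the start site. Capitals mark matches to a list of motifs chosen after the sequences had been seen and searched on both strands: an interferon-stimulated response element (ISRE, TTTC, any 2 bases, TTTC) or its short form GTTTCAC, an NF-kB element of GGG, any 2 bases, TTCCC, a variant of it ending in TTTCC, a GAS element TTCNNNGAA, the Y box CCAAT and the SMAD element GTCTAGAC. The H2-K1 window is chr17:34000334-34000583 (minus strand, the second of 2 entries), H2-D1 is chr17:35262844-35263093 (plus) and B2m is chr2:122147437-122147686 (plus).
H2-K1: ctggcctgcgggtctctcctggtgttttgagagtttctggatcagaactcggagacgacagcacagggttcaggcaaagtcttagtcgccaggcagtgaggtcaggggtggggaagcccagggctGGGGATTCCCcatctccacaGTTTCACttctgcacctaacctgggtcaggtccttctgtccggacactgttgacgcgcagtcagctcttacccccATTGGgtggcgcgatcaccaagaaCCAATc
H2-D1: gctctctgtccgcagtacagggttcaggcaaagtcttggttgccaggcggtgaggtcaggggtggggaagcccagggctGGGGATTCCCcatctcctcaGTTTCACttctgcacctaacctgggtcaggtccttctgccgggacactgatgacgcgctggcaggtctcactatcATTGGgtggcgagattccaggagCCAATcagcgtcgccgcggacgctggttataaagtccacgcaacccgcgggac
B2m: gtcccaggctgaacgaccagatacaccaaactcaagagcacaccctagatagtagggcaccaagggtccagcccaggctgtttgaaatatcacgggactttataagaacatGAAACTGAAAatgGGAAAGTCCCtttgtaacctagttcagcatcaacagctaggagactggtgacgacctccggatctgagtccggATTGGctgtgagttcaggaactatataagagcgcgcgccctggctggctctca
In a local alignment, the H2-K1 and H2-D1 windows were identical at 172 of 192 columns (89.6%). Each window lies before the start site of its own entry. The other H2-K1 entry has its window at chr17:34000348-34000597, so the last bases shown for H2-K1, with CCAAT, lie past that start. Transcribed parts beyond the windows were not compared. Reads of related heavy chains may be shared, which leaves their separate values uncertain by an amount not measured here. Both held GGGGATTCCC followed by GTTTCAC, which matched the NF-kB element and the short ISRE, present in 1.53% and 2.12% of 32851 RefSeq promoter windows of this length. B2m held a full ISRE (2.98% of windows) and the NF-kB variant on its minus strand (1.41%). The Y box was in 6 of the 8 genes with an entry and in 33.8% of all windows, and the GAS element was in Psmb8 only, against 7.02% of windows. The SMAD element, in 0.167% of windows, was in none of the 8. These matches describe letters and not bound sites.

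With TGFB, all 10 genes fell (GFP_TGFB against GFP). The share of all tested genes called lower in this comparison was 28.6%, at a Benjamini-Hochberg adjusted p under 0.05 in edgeR's quasi-likelihood test over all genes. The median log2 fold change was -0.88 over the 10 genes and -0.02 over all tested genes. For all 10, no GFP_TGFB library reached the lowest GFP library, a pattern seen in the lower direction for 25.5% of tested genes. The fall was largest for Psmb8, Psmb9 and Nlrc5 and smallest for B2m. Since the libraries are bulk RNA, fewer cells of a type and less RNA per cell cannot be told apart.

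Psmb8, the immunoproteasome subunit with chymotrypsin-like activity, stood at 26.4, 26.9, 31.2 and 36.4 CPM in GFP replicates 1 to 4 and at 3.79, 4.82, 4.005 and 4.03 in GFP_TGFB. The groups were far apart, and its log2 fold change was -2.85 (SE 0.24, edgeR adjusted p = 1.05e-08), a 7.22-fold fall. Psmb9, which takes the place of the caspase-like subunit Psmb6, stood at 3.91, 3.47, 6.73 and 6.79 CPM in GFP and at 0.976, 0.818, 0.918 and 0.708 with TGFB. Those GFP_TGFB values rest on 29 to 59 counts a library, and the male GFP libraries were above the female ones. Its log2 fold change was -2.61 (SE 0.33, edgeR adjusted p = 1.65e-06). Psmb10, the subunit with trypsin-like activity, stood at 24.97, 27.2, 29.8 and 27.4 CPM in GFP and at 18.4, 17.4, 17.5 and 19.8 with TGFB. It fell by 0.58 on the log2 scale (SE 0.17, edgeR adjusted p = 0.00597), less than the other immunoproteasome subunits in each of the 4 pairs.

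Nlrc5, the transactivator, stood at 3.69, 4.43, 3.99 and 5.20 CPM in GFP and at 1.03, 1.30, 1.17 and 1.196 with TGFB. The 4 values in GFP_TGFB lay close together, and the log2 fold change was -1.87 (SE 0.31, edgeR adjusted p = 3.69e-05). H2-K1 stood at 221, 221, 269 and 266 CPM in GFP and at 139.7, 128, 142 and 131 with TGFB. Its log2 fold change was -0.85 with an SE of 0.15 (edgeR adjusted p = 8.7e-05). H2-D1 stood at 329.6, 341, 341 and 288 CPM in GFP and at 199.6, 190.5, 167 and 152 with TGFB, and its log2 fold change was -0.87 with an SE of 0.18 (edgeR adjusted p = 0.000347). Both heavy chains thus stood at 1.81 to 1.83 times lower levels with TGFB. The peptide transporter and tapasin fell by similar amounts, Tap1 by 1.01, Tap2 by 0.87 and Tapbp by 0.89 on the log2 scale (edgeR adjusted p = 8.2e-05 to 0.00038).

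B2m, the light chain shared by all class I molecules, stood at 809, 916, 989.6 and 1001 CPM in GFP and at 627, 786, 717 and 673 with TGFB. The groups did not overlap, and replicate 2 with TGFB lay just below GFP replicate 1. Its log2 fold change was -0.41 (SE 0.13, edgeR adjusted p = 0.0128), a 1.33-fold fall. The B2m call did not hold without replicate 4 (-0.34, edgeR adjusted p = 0.101, and 0.056 with the replicate block), and it held in the other 20 alternatives (adjusted p = 0.00367 to 0.0442). The plot of fitted log2 fold changes sets the 10 genes side by side.

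**Figure D2:**
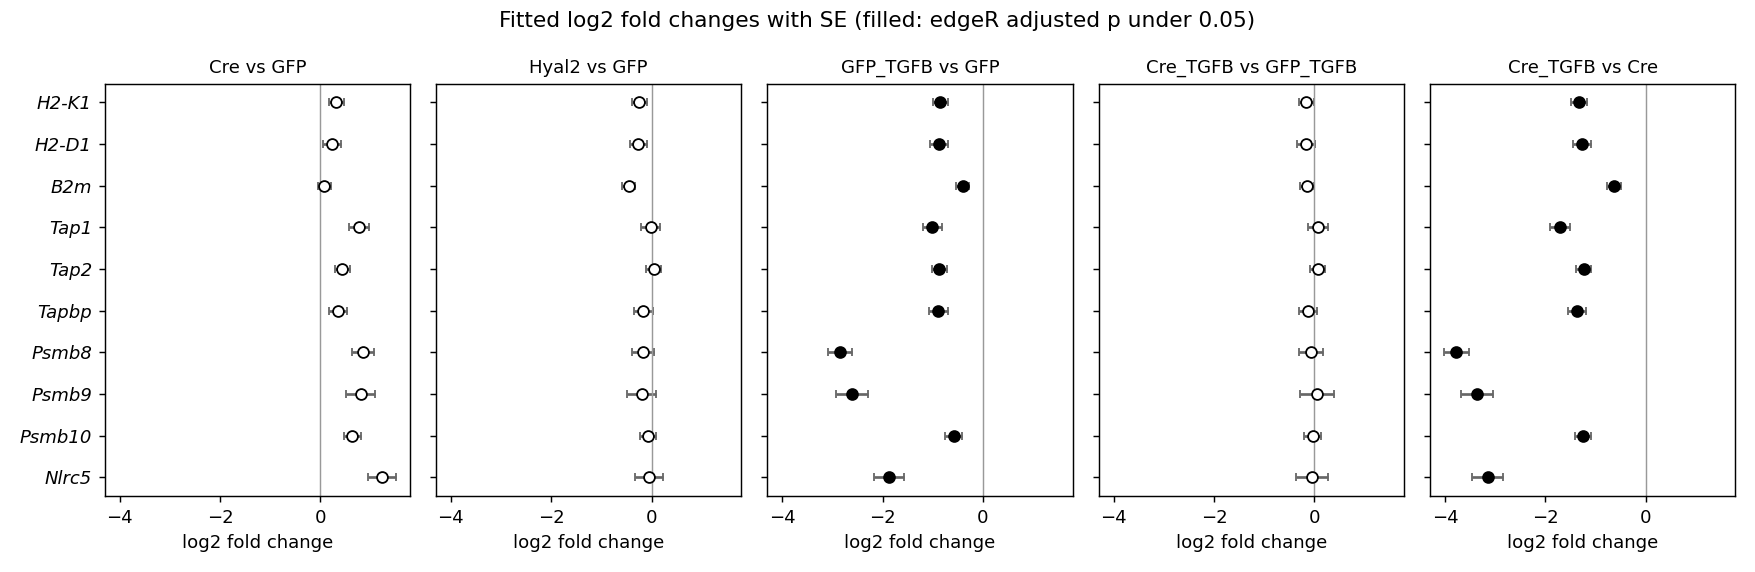
Fitted log2 fold change (x axis) with its SE for each of the 10 genes in 5 comparisons, filled where edgeR's adjusted p was under 0.05. The filled points are those of GFP_TGFB against GFP, from -0.41 for B2m to -2.85 for Psmb8, and of Cre_TGFB against Cre, from -0.63 to -3.77, and no point is filled in the other comparisons shown.

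The constitutive subunits moved the other way. Of the 14 core subunits of the standard proteasome, 12 rose with TGFB and 0 fell, with a median log2 fold change of 0.37, against 26.6% of all tested genes called higher. Psmb5, Psmb6 and Psmb7, which the immunoproteasome subunits replace, rose by 0.63, 0.32 and 0.58 (SE 0.11, 0.10 and 0.12, edgeR adjusted p = 0.000119, 0.0135 and 0.000315). The ratio of Psmb8 to Psmb5, per kilobase, was 0.332 ± 0.0992 (SD, n = 4) in GFP and 0.0288 ± 0.00516 in GFP_TGFB, 11.5 times lower. For Psmb9 to Psmb6 it was 0.0272 ± 0.0115 and 0.00346 ± 0.000426, 7.86 times lower, and for Psmb10 to Psmb7 0.241 ± 0.0447 and 0.106 ± 0.00582, 2.27 times lower. In no library with TGFB did any of these ratios reach the lowest library without it, as the plot of the ratios shows. The size of a ratio depends on the transcript lengths used, but its change between groups does not.

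**Figure D3:**
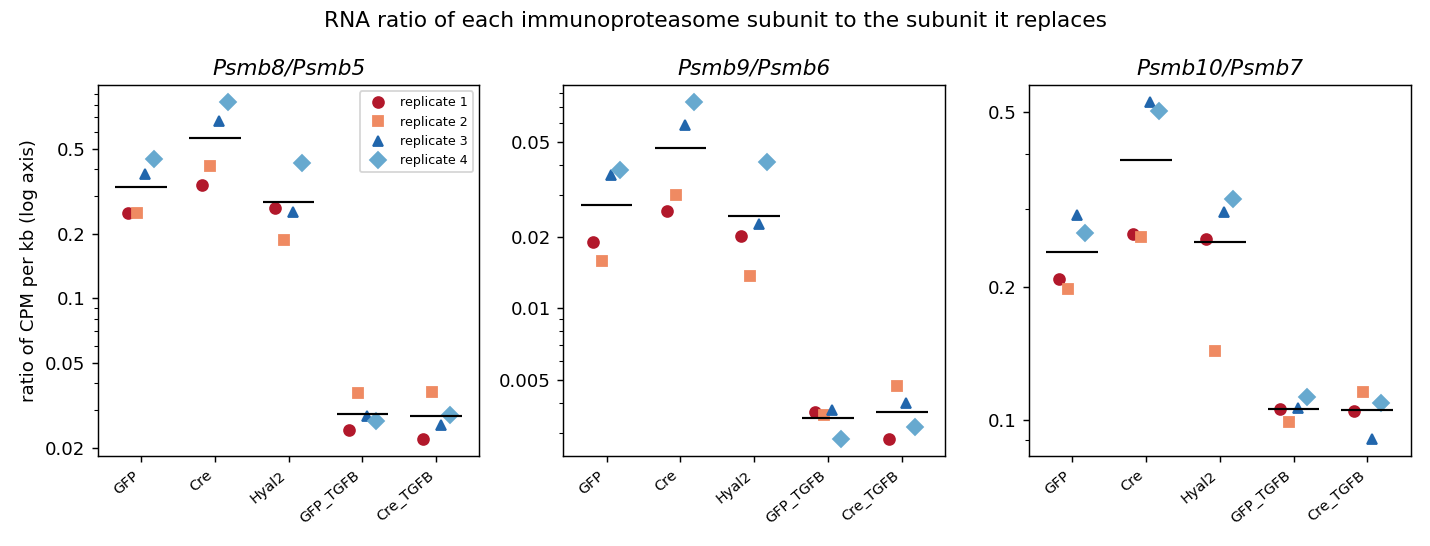
Ratio of CPM per kb of each immunoproteasome subunit to the constitutive subunit it replaces (log axis), per library and with the group mean as a bar. Psmb8/Psmb5 lies between 0.249 and 0.448 in GFP and between 0.0241 and 0.0361 in GFP_TGFB, and Cre_TGFB lies in the same low range.

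Other class I genes also fell with TGFB. Of 12 tested heavy chains outside the 10 genes, 11 fell and 0 rose, with a median log2 fold change of -1.62, and H2-M5 did not pass. H2-T23, the mouse Qa-1 chain recognised by natural killer receptors, fell from 161 ± 27.9 to 38.3 ± 2.87 CPM, and H2-Q4 from 33.9 ± 5.27 to 4.75 ± 0.768. These belong to a multigene family whose members can share reads. Of 7 loading chaperones and peptide trimmers 3 fell and 0 rose, where 28.6% of all tested genes were called lower. The aminopeptidase Erap1 fell by 0.66, the protease Sppl2a by 0.59 and the tapasin relative Tapbpl by 0.45 on the log2 scale. Calr, Canx, Pdia3 and Lnpep were not called, with Calr at 2065 ± 44.5 CPM in GFP and 1981 ± 158 with TGFB, and Canx at 661 ± 45.4 and 741 ± 30.5. With the block 3 of the list fell and 1 rose, and 5 were called with the block and without replicate 2. Of the proteasome activators, Psme1 and Psme2, which form the PA28 cap that interferon gamma induces, fell by 0.73 and 0.30, and Psme3 rose by 0.58.

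Among 18 transcription regulators tied to class I genes, 11 fell and 1 rose, with a median of -0.45. For this and the next lists, the shares of all tested genes called with TGFB were 28.6% lower and 26.6% higher. The interferon signal factor Stat2 changed by -1.14, Stat3 by -0.62 and Irf2 by -0.96 (edgeR adjusted p = 5.89e-08 to 0.000293), while Nfya, a subunit of the Y box binding factor, rose by 0.35. Of 10 interferon receptor and inhibitor genes 7 fell, among them the feedback inhibitor Socs3 by 1.70 and the type I receptor chain Ifnar2 by 0.72, and the interferon gamma receptor chain Ifngr2 rose by 0.51. Of the ligands, Ifnb1 had at most 5 counts in a GFP library and Ifng 0. Of 6 class II genes 3 fell, and 1 without replicate 3 or without the GFP_TGFB library of replicate 3, with H2-Ab1 at 1.77 ± 0.647 CPM in GFP and 0.586 ± 0.1004 with TGFB. Ciita, the class II transactivator and relative of Nlrc5, was at 0.0126 ± 0.0146 CPM in GFP, under the floor of 3 counts.

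Some markers of other cell types and of fibroblasts also fell with TGFB, where 28.6% of all tested genes were called lower. Of 12 tested leukocyte markers, whose cells are rich in class I and Psmb8, 6 fell and 0 rose, and 11 fell with the replicate number as a block, a fit in which 32.1% of tested genes were called lower. Their summed level ranged from 227 to 529 CPM in GFP and from 129 to 321 in GFP_TGFB, with the pan-leukocyte gene Ptprc at 3.26 ± 0.819 and 1.74 ± 0.735 CPM. Of 9 endothelial markers 4 fell (7 with the block, 2 without replicate 4), with summed levels of 39.2 to 42.9 and 16.99 to 22.7 CPM. Of 5 tested mural markers 2 fell (3 with the block) and 1 rose. Of 5 mesothelial markers 2 fell (3 with the block, where 1 rose), and of 2 cardiomyocyte markers 1 fell. The mesothelial sum was 2.39 ± 1.44 CPM in GFP and 2.24 ± 1.07 in GFP_TGFB. Of 10 fibroblast markers 8 fell and 1 rose, with Pdgfra changed by -2.73, Tcf21 by -2.31 and Col1a1 by 0.80. The part of these cells in the falls of the class I genes was not tested.

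With the Cre virus, all 10 genes fell again with TGFB (Cre_TGFB against Cre), where 29% of tested genes were called lower. Log2 fold changes were -1.33 for H2-K1, -1.28 for H2-D1, -0.63 for B2m, -1.70 for Tap1, -1.23 for Tap2 and -1.37 for Tapbp. They were -3.77 for Psmb8, -3.36 for Psmb9, -1.25 for Psmb10 and -3.15 for Nlrc5 (SE 0.13 to 0.32, edgeR adjusted p = 3.76e-10 to 0.000433 over the 10). Psmb8 went from 36.8, 46.6, 64.0 and 70.3 CPM in Cre to 3.30, 5.57, 3.20 and 3.97 in Cre_TGFB, so that both TGFB groups ended in the same range. Each gene's change was larger in size than in GFP cultures, but the difference, tested as the Cre by TGFB interaction, passed for 0 of 10 genes in edgeR, and for 0% of all tested genes (adjusted p = 1.00 for each of the 10, and 5 of 10 at an unadjusted p under 0.05, against 2.54% of tested genes). DESeq2 and limma-voom also called 0 for this interaction.

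For most of the 10 genes the male pairs of cultures had the larger falls with TGFB, more clearly in Cre than in GFP cultures. In Cre_TGFB against Cre, both male pairs fell further than both female pairs for 10 of 10 genes, against 27.1% of tested genes, and in GFP_TGFB against GFP for 8 of 10, against 25.2%. The mean change of Tap2 in Cre cultures was -0.84 in female and -1.61 in male pairs, and that of H2-D1 -0.90 and -1.74. With group means estimated separately for each sex, the male minus female difference in Cre_TGFB against Cre passed for 0 of 10 genes (edgeR adjusted p = 0.101 to 0.552), with 0.128% of tested genes called. At an unadjusted p under 0.05 it was 9 of 10, against 14.8% of tested genes. In GFP_TGFB against GFP the male minus female difference passed for 0 of 10 genes, with 1.38% of tested genes called. There 1 of 10 had an unadjusted p under 0.05 in edgeR, as had 2572 of all 15624 tested genes. Each sex had 2 replicate numbers, so sex and replicate number cannot be told apart.

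Without TGFB, Cre against GFP gave 0 of 10 called genes in edgeR. The viruses of these groups differ in what they carry, and no group received the Cre virus with Hyal2 left intact. An effect of Cre recombinase and one of Hyal2 deletion therefore cannot be told apart, here or with TGFB. Of all tested genes 0.0064% were called, which is Hyal2 alone, and 4.55% had an unadjusted p under 0.05, as had 7 of the 10. The fitted differences were all above 0, as were those of 49.8% of tested genes, with a median of 0.54 against 0.00 over all tested genes. They ran from 0.08 for B2m, 0.23 for H2-D1, 0.32 for H2-K1, 0.35 for Tapbp and 0.44 for Tap2 to 0.64 for Psmb10, 0.77 for Tap1, 0.80 for Psmb9, 0.85 for Psmb8 and 1.23 for Nlrc5 (edgeR adjusted p = 0.256 to 0.969). For 9 of 10, the Cre library was above the GFP library of the same number in all 4 pairs, against 15.9% of tested genes, and the exception was B2m in replicate 4. For 5 of 10 (H2-D1, Tap1, Psmb8, Psmb10 and Nlrc5) the lowest Cre library was above the highest GFP library, against 2.01% of tested genes.

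Nlrc5 had the largest of these differences. Its level was 6.00, 8.38, 9.99 and 16.4 CPM in Cre replicates 1 to 4, against 3.69, 4.43, 3.99 and 5.20 in GFP, and the paired log2 differences were 0.70, 0.91, 1.32 and 1.65. Its fitted log2 fold change was 1.23 (SE 0.28, edgeR adjusted p = 0.256). With the replicate block it rose by 1.18 (SE 0.22, edgeR adjusted p = 0.0289), as the only one of the 10 called, with 0.237% of tested genes called higher in that fit. That call did not hold with the block without replicate 1, 2 or 4 (adjusted p = 0.113, 0.195 and 0.209) and held without replicate 3 (0.0474). DESeq2 called Nlrc5 (adjusted p = 0.0177) and Tap1 (0.0385), with 0.237% of genes called, and limma-voom called 0 of the 10.

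Psmb8, Psmb9 and Tap1 had the next largest differences. Psmb9, Tap1, Psmb8 and Tap2 follow each other in the RefSeq gene table, inside the MHC region. Psmb9 and Tap1 are read in opposite directions from a shared segment of 225 bases, chr17:34187331-34187555 on GRCm38.p6, shown on the plus strand with its only motif match, a Y box, in capitals, because it lies before the start sites of both.
Psmb9-Tap1: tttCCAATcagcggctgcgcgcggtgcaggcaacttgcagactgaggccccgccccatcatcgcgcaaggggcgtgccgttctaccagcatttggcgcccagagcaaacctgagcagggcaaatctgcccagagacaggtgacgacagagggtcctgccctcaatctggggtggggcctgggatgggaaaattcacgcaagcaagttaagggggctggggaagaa
Tap1 stood at 85.9, 95.5, 134 and 152 CPM in Cre and at 57.9, 61.1, 73.5 and 81.6 in GFP. Its paired differences were 0.57, 0.65, 0.86 and 0.90, and those of Psmb9 0.52, 0.99, 0.75 and 0.89. By these start sites the Psmb9 and Tap1 transcripts run apart and do not overlap. Whether reads were assigned by strand is not given in the sources used here, and overlap of transcripts from other start sites was not checked.

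**Figure D4:**
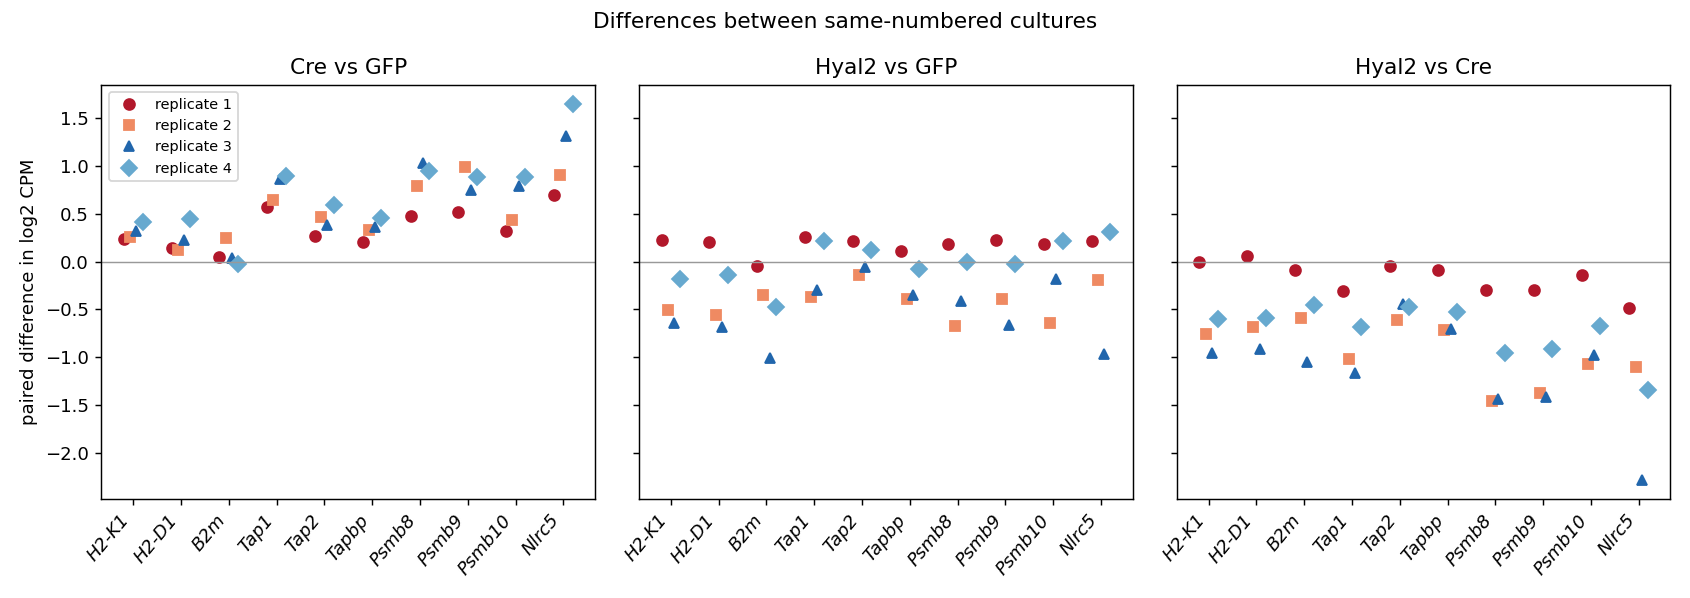
Difference in log2 CPM (y axis, prior count 2) between libraries of the same replicate number, for the 10 genes in 3 comparisons. In Cre against GFP 39 of 40 points lie above 0, with Nlrc5 from 0.70 to 1.65; in Hyal2 against GFP replicate 1 lies above 0 for 9 of 10 genes while replicates 2 and 3 lie below.

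In Cre against GFP, 0 genes were called by edgeR in each of the other class I, proteasome and interferon lists. H2-Q4 differed by 1.03, H2-T22 by 0.69, Stat2 by 0.72, the interferon-induced protease Usp18 by 1.24 and the checkpoint ligand Cd274 (PD-L1) by 1.2001 (SE 0.17 to 0.31, edgeR adjusted p = 0.287 to 0.635). DESeq2 called H2-T22, Usp18 and Cd274 of these. The genes named were those with the smallest p in their lists and do not stand for the lists. Median differences were 0.33 for other heavy chains, 0.07 for transcription regulators and 0.03 for interferon receptors and inhibitors. They were -0.02 for the list with Cd274 (3 of 5 below 0) and -0.05 for loading chaperones and trimmers (5 of 7 below 0). The 12 tested leukocyte markers had a median difference of -0.04, and their summed level was 196 to 517 CPM in Cre against 227 to 529 in GFP. The 14 constitutive proteasome subunits had a median of 0.03. The ratio of Psmb8 to Psmb5 was 0.563 ± 0.227 in Cre against 0.332 ± 0.0992 in GFP, higher in Cre in 4 of 4 pairs, although the groups overlapped.

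With TGFB present, Cre_TGFB against GFP_TGFB gave 0 of 10 called genes, 0 at an unadjusted p under 0.05 by edgeR, and 0 by DESeq2 or limma-voom. Of all tested genes, 0.0064% were called by edgeR and by limma-voom, 0.0128% by DESeq2, and 1.43% had an unadjusted p under 0.05. Differences ran from -0.17 for H2-D1 to 0.07 for Tap1, with 3 above and 7 below 0 and SE of 0.13 to 0.34. Psmb8 stood at 4.16 ± 0.453 CPM in GFP_TGFB and 4.01 ± 1.10 in Cre_TGFB, and Nlrc5 at 1.18 ± 0.112 and 1.15 ± 0.170.

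Overexpression of Hyal2 (Hyal2 against GFP) also gave 0 of 10 called genes in edgeR, DESeq2 and limma-voom, with 0.0064% of tested genes called (Hyal2 itself). B2m was the only one of the 10 with an unadjusted p under 0.05 and the only one whose libraries did not overlap, against 2.12% and, in the lower direction, 0.685% of tested genes. It stood at 785, 719, 490.4 and 719.6 CPM in Hyal2 against 809, 916, 989.6 and 1001 in GFP. Its log2 difference was -0.45 (SE 0.13, edgeR adjusted p = 1.00), below 0 in 4 of 4 pairs, as for 6.89% of tested genes. The replicates were not alike: H2-K1 stood at 259.7, 156, 173 and 234 CPM in the Hyal2 cultures, with paired differences of 0.23, -0.50, -0.64 and -0.18. Across the 10 genes, replicate 1 lay above its GFP library for 9, and replicates 2 and 3 lay below theirs for all 10.

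Set directly against each other, the Hyal2 and Cre cultures differed in one direction for all 10 genes, with Hyal2 lower, against 47.9% of tested genes with a fitted difference below 0. Of the 10, 10 were at an unadjusted p under 0.05 in edgeR, against 2.92% of tested genes. Adjusted over all genes, 0 of 10 passed, against 0.0128% of tested genes (edgeR adjusted p = 0.1005 to 1.00), and limma-voom also called 0. With the replicate block 6 of 10 passed, against 0.973% of tested genes called lower: Nlrc5 (-1.28), Psmb8 (-1.02), Psmb9 (-0.98), Tap1 (-0.79), Psmb10 (-0.71) and B2m (-0.53), at adjusted p = 0.00781 to 0.0474. DESeq2 called 6 as well, with H2-K1 (adjusted p = 0.0361) among them and Psmb9 (0.0686) not, and 0.723% of genes called. Nlrc5 stood at 4.28, 3.88, 2.02 and 6.47 CPM in Hyal2 and at 6.00, 8.38, 9.99 and 16.4 in Cre, and the highest Hyal2 library overlapped the lowest Cre library. With the block, none of these 6 genes passed without replicate 2 or without replicate 3, 1 (Nlrc5) without replicate 4 and 5 without replicate 1. Without the block, 4 of the 10 passed without Cre replicate 1, and 4 without Hyal2 replicate 4. This comparison shares the Cre libraries with the one against GFP.

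Over the 20 libraries the 10 genes varied together. Pearson correlations of log2 CPM over the 45 pairs of genes ran from 0.59 to 0.99 with a median of 0.94. After subtraction of group means they ran from 0.08 to 0.93 with a median of 0.70. Those of B2m then ran from 0.08 with Tap2 to 0.66 with Nlrc5. Those of H2-D1 ran from 0.15 with Tapbp to 0.70 with H2-K1, while Tap1 and Psmb8 had 0.93. These coefficients do not give the share of the variation that lay within groups. The libraries share replicate numbers and treatments, and the coefficients are descriptions. Of 10135 other genes with a mean of at least 5 CPM, the pattern most like the mean of the 10 was that of Ly6e (r = 0.995 over 20 libraries), an interferon-induced surface protein, followed by Shisa5 (0.989), H2-Q4 (0.987), Tmem106a (0.986) and H2-T22 (0.986). Mean levels of Ly6e were 505 CPM in GFP, 794 in Cre, 392 in the Hyal2 group, 183 in GFP_TGFB and 181 in Cre_TGFB.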

How the data were processed

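Cardiac fibroblast RNA was sequenced in 20 libraries, 4 in each of 5 groups. Trizol RNA was DNase-treated before NEBNext Ultra II library preparation, per the labels' protocols. The tools named are HTSeq 0.10.0 and FastQC 0.10.1, with build GRCm39 (mm39), per the submitters' processing notes. The authors deposited unnormalised counts, whole numbers for each Ensembl gene identifier. Which aligner, annotation release and strand setting were used is not given in the sources used here. All columns of the table matched a labelled sample. Symbols were looked up by identifier for 52081 of 55414 identifiers.

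Counts were fitted with edgeR 4.0.16 in R 4.3.3 (robust quasi-likelihood F test, 1 mean per group over all 20 libraries, TMM factors, no block). Genes were kept by filterByExpr (minimum count 10, minimum total 15), and calls were made where the p-value, adjusted by Benjamini-Hochberg across the 15624 genes kept, was under 0.05. The script was tested on simulated counts with a fixed dispersion and no replicate effect. That test does not cover calls that depend on the replicate block. Log2 CPM used a prior count of 2. Levels per kilobase used the length of the principal transcript in a GRCm38 annotation. Alternatives were the replicate block, DESeq2 1.42.0, limma-voom (limma 3.58.1), RLE factors, no filter, the compared groups alone and each library or replicate number left out. The block with a replicate number left out, the sex difference and the exon-union length were added after the data had been seen.

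The sample titles give each library a replicate number within its group. Same-numbered libraries deviated together across groups (r = 0.11 to 0.71 over 40 pairs, median 0.41). Over 120 pairs of different numbers the median was -0.25. The numbers were therefore taken to pair the samples. The labels name no separate animals within a number. Replicates of a group differed by more than sampling noise (chi-square per degree of freedom at least 8.17 in 30 pairs).

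The genes and lists were chosen with earlier results of these data known. Named in the text were the 10 genes, Hyal2, Psmb5 to Psmb7, genes with the smallest p in each list, and the 5 genes of most similar pattern; others were named after their values were seen. Matches of 159 of 161 listed symbols were found. Counts cover the whole Hyal2 gene and do not show the deleted exon.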

Additional observations from a re-analysis of the deposited data

How the results depend on the processing

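The 10 falls in GFP_TGFB against GFP and in Cre_TGFB against Cre kept their direction in all 22 alternatives each, and their calls in all but the B2m fits given above. Calls in Cre against GFP depended on the replicate block (1 gene, Nlrc5) and on DESeq2 (2 genes), against 0 in the other planned fits, and with the block and a replicate number left out 0 to 1 genes were called. In Hyal2 against Cre the block called 6 genes and DESeq2 6, and leave-outs called 0 to 4 without the block and 0 to 6 with it, against 0 called in the fit with all libraries. The block changed no other call of the 10 genes. The cause of these changes was not tested.

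Signs reversed only for small uncalled differences when a library or replicate number was left out. In Cre_TGFB against GFP_TGFB, values ran from -0.139 to 0.0361 for Nlrc5, -0.271 to 0.0232 for Psmb8, -0.151 to 0.211 for Psmb9, -0.138 to 0.0511 for Psmb10, -0.0215 to 0.168 for Tap1 and -0.00012 to 0.155 for Tap2. With the block as well, Nlrc5 stood at 0.0127, 0.0746 and 0.0018 without replicates 2, 3 and 4, Psmb10 at 0.0411 and 0.0211 without 3 and 4, Psmb9 at -0.106 and Tap1 at -0.00378 without 2. In Hyal2 against GFP, values ran from -0.354 to 0.174 for Nlrc5, -0.189 to 0.0727 for Psmb10, -0.222 to 0.121 for Tap1 and -0.0423 to 0.173 for Tap2. With the block as well, Nlrc5 stood at 0.1249 without replicate 3, Psmb10 at 0.0689 and Tap1 at 0.0609 without 2, Tap1 at 0.0667 without 3 and Tap2 at -0.0109 without 1. Over the lists, the block called 11 leukocyte markers against 6, 7 endothelial against 4 and 4 mesothelial against 2 in GFP_TGFB against GFP, and 4 class I regulators and 2 other heavy chains against 0 in Hyal2 against Cre. Of the class II genes 1 was called without replicate 3 against 3. At the levels of Psmb9 and Nlrc5 with TGFB, 28 to 95 counts a library limit the precision.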
